A study of Mus musculus with 18 samples.

Results

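The 7 genes described here are the cytochrome P450 genes Cyp2b10, Cyp2b9 and Cyp2b13, Nr1i3 (the receptor CAR), Nr1i2 (the receptor PXR), Por (the P450 reductase) and Sult1e1 (estrogen sulfotransferase). They were taken by gene symbol from the 23930 genes of a targeted expression panel read in mouse liver. The main observation was that Cyp2b10 rose on ethanol in each of the 3 genotypes, a call that held in overexpressing mice but not in the other 2 genotypes once a split of the libraries by Xist was modelled, while its near relatives Cyp2b9 and Cyp2b13 separated libraries of the same diet.

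CAR and PXR are nuclear receptors of hepatocytes that respond to drugs, bile acids and other small molecules, pair with the retinoid X receptor and switch on genes of drug metabolism. Cyp2b10 is the classical target of CAR in mouse liver, and Cyp2b9 and Cyp2b13 are known as P450 genes with higher expression in female than in male mice. POR passes electrons from NADPH to the P450 enzymes of the endoplasmic reticulum, and SULT1E1 adds sulfate to estrogens, which then no longer bind their receptor.

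Liver RNA was measured in 18 libraries, 3 in each of 6 groups, with a panel that reads 1 amplicon per gene. All mice were Yap fl/fl, and at the age of 8 weeks were injected with AAV, a viral vector, carrying the hepatocyte promoter TBG. Cells other than hepatocytes were not targeted. Yap knockout mice were given AAV-TBG-Cre at 5e10 genome copies per mouse, YAP-overexpressing mice AAV-TBG-YAP-P2A-EGFP at 2e11, and control mice AAV-TBG-GFP at 2e11, so knockout and control mice also differed in viral dose. In each genotype 1 group drank ethanol liquid diet for 4 weeks and ended with a gavage of 5 g/kg ethanol (33% v/v), and 1 group was pair-fed the control liquid diet and gavaged with maltose-dextrin. Feeding began 2 weeks after the virus with 5 days of acclimation, and livers were taken 9 hours after the gavage. The labels state neither sex nor whether libraries come from different animals, and the p-values here measure spread among libraries, which may be technical.

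Levels are given in CPM, reads scaled to the library total, and changes as log2 fold changes ± SE from a limma fit to log2(CPM + 1). For genes at or below about 1 CPM this scale makes changes look smaller than they are. A change was called at an adjusted p under 0.05 over the 11720 genes tested, and all 7 genes were among them. Libraries held 4.68 to 5.81 M reads, and 3 reads, the limit that a count of 0 allows, came to 0.517 to 0.641 CPM, which covers counting error only. The 5 hepatocyte markers found on the panel were read in every group. Yap1 stood at 3.34 to 15.1 CPM in knockout libraries and at 106.4 to 214 CPM in 5 overexpression libraries, against 51.5 to 66.6 CPM in controls. Pair-fed overexpression replicate 1, at 57.6 CPM, lay within the control range and so went against its label. In bulk liver, fewer cells of a type and less RNA per cell cannot be told apart.

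Xist and Y-linked genes set 5 libraries apart from the other 13, a pattern that the labels do not mention. Xist RNA, a product of the inactive X, reached 348 to 423 CPM in all 3 pair-fed knockout libraries and in replicates 2 and 3 of the pair-fed controls, while 13 libraries held 0 to 2.75 CPM. Ddx3y, a gene of the Y chromosome, showed the reverse, with 0 to 3.47 CPM in those 5 and 54.0 to 128.8 CPM in the 13. The ethanol response of overexpressing mice and the comparisons of genotypes on ethanol therefore lie within libraries with Y-linked reads. In knockout mice the ethanol response runs between the 2 patterns and cannot be told apart from them, and in control mice only pair-fed replicate 1 has the pattern of the ethanol-fed libraries.

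Cyp2b10 was higher on ethanol than on the pair-fed diet in every library of every genotype. In knockout mice it stood at 530, 520 and 682 CPM on ethanol, against 20.9, 20.1 and 13.9 CPM on the pair-fed diet. In overexpressing mice it stood at 292, 317 and 392 CPM on ethanol, against 39.6, 21.9 and 19.8 CPM on the pair-fed diet. In control mice it stood at 193, 1171 and 782 CPM on ethanol, against 93.3, 28.5 and 35.8 CPM on the pair-fed diet. The groups of each genotype did not overlap, and control replicate 1 was the lowest on ethanol and the highest on the pair-fed diet. The rise was 4.91 ± 0.48 in knockout (limma, adjusted p = 2.27e-05), 3.63 ± 0.48 in overexpressing (adjusted p = 0.00120) and 3.59 ± 0.48 in control mice (adjusted p = 0.000798). Averaged over the genotypes it was 4.04 ± 0.28, with a 95% interval of 3.46 to 4.63 (adjusted p = 3.78e-08).

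In knockout and control mice the size of this rise changed when the Xist pattern entered the fit. Among pair-fed libraries alone, Cyp2b10 stood at 13.9 to 35.8 CPM in the 5 with Xist and at 19.8 to 93.3 CPM in the 4 with Y-linked reads, ranges that overlap. With a term for the Xist libraries, whose size rests on the 3 pair-fed controls, the rise was 3.40 in knockout mice (adjusted p = 0.179), 2.58 in control mice (adjusted p = 0.103) and 3.20 on average (adjusted p = 0.00129). Without the Xist libraries the control value was again 2.58 and was not called (adjusted p = 0.128). In overexpressing mice, where no library has Xist, it stayed at 3.63 (adjusted p = 0.000207).

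By group mean, Cyp2b10 stood highest in ethanol-fed controls (715 ± 492 CPM, SD, n = 3 libraries here and below), followed by ethanol-fed knockout (577 ± 90.4 CPM) and ethanol-fed overexpressing mice (334 ± 52.0 CPM). Pair-fed controls (52.5 ± 35.5 CPM), pair-fed overexpressing (27.1 ± 10.9 CPM) and pair-fed knockout mice (18.3 ± 3.81 CPM) followed. Neighbours in this order overlapped, except ethanol-fed knockout over ethanol-fed overexpressing libraries and the step between the diets. On ethanol, overexpression over knockout was at -0.79 ± 0.48 and was not called (adjusted p = 0.465).

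**Figure D1:**
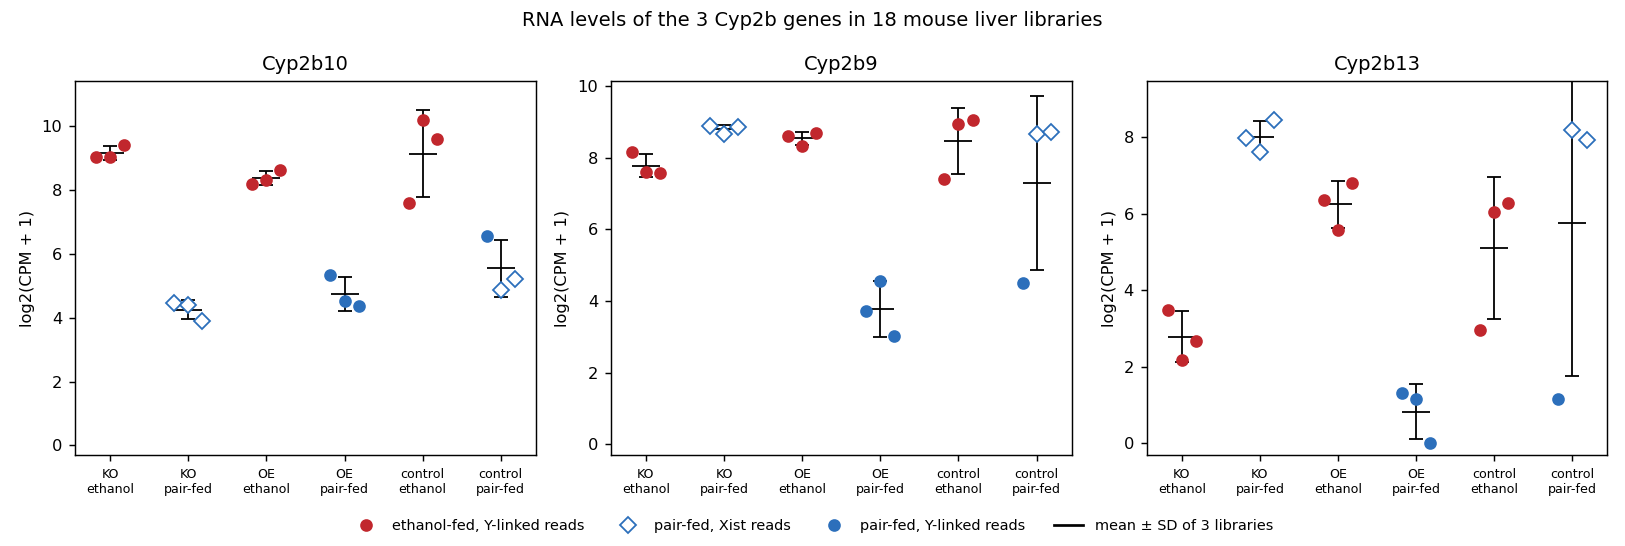
RNA levels of Cyp2b10, Cyp2b9 and Cyp2b13 as log2(CPM + 1) on the vertical axis, by group on the horizontal axis (KO, Yap knockout, and OE, YAP overexpression). Points are libraries in the order of replicates 1 to 3, open diamonds are the 5 libraries with Xist, and bars give the mean ± SD. Cyp2b10 divides by diet in all 3 genotypes, while Cyp2b9 and Cyp2b13 are high in the 5 open diamonds and lowest in the 4 filled pair-fed points.

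The 3 Cyp2b genes lie near each other on mouse chromosome 7. Their promoters, 250 bases before to 50 bases after the start of the transcript, are shown because Cyp2b9 and Cyp2b13 share nearly the same promoter, although their levels were not alike in all groups. The sequences are those of RefSeq on GRCm38.p6, + strand, at chr7:26173159-26173458 for Cyp2b9, chr7:26061245-26061544 for Cyp2b13 and chr7:25897408-25897707 for Cyp2b10. The gene spans of Cyp2b9 and Cyp2b13 begin at chr7:26173350 and chr7:26061388, upstream of the transcript starts used for these windows. Capitals mark the bases at which Cyp2b9 and Cyp2b13 differ from each other and, in Cyp2b10, the bases that are mismatched or unaligned against Cyp2b9.
Cyp2b9: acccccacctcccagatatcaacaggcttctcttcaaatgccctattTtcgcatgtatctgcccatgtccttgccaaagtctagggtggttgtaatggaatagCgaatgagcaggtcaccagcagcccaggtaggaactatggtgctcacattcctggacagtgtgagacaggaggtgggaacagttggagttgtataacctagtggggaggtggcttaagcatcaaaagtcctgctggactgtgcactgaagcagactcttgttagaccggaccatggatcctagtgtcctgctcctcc
Cyp2b13: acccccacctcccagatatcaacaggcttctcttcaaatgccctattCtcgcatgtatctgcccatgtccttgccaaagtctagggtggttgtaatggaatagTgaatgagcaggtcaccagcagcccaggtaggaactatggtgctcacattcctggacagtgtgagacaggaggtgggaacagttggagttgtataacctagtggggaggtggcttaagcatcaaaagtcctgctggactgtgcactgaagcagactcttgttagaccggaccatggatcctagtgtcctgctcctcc
Cyp2b10: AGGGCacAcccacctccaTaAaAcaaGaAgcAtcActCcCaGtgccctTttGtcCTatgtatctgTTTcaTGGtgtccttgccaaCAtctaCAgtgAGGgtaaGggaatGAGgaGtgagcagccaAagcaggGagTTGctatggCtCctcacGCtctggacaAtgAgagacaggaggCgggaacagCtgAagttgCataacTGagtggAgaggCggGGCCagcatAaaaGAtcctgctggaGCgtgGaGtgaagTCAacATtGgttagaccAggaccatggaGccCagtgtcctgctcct
Cyp2b9 and Cyp2b13 differ at 2 of the 300 bases (99.3% identity), and Cyp2b10 matches either at 71.7% of 311 aligned positions. The nuclear receptor half-site AGGTCA, searched on both strands, occurred 1 time each in the windows of Cyp2b9, Cyp2b13 and Sult1e1 and in none of the other 4 windows, against 16.3% of 32851 promoters. Neither TTCNNNGAA, the core of STAT sites (8.3% of promoters), nor TATAAA (13.6%) occurred in any of the 7 windows. These are matches of letters in a short window. The transcripts are 89.2% identical between Cyp2b9 and Cyp2b13, 84.4% between Cyp2b9 and Cyp2b10 and 83.7% between Cyp2b13 and Cyp2b10. Amplicon positions were not used here, so reads shared between these paralogs cannot be separated, and the levels of Cyp2b9 and Cyp2b13 are uncertain in that respect.

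Cyp2b9 rose on ethanol in overexpressing mice, where it stood at 390, 318 and 411 CPM on ethanol, against 12.3, 22.8 and 7.15 CPM on the pair-fed diet. All 3 ethanol-fed libraries lay above all 3 pair-fed ones, and the change was 4.76 ± 0.73 (limma, adjusted p = 0.00367). In knockout mice the order was the opposite, with 284, 195 and 190 CPM on ethanol, against 468, 404 and 465 CPM on the pair-fed diet. This difference of -1.02 ± 0.73 was not called in the fit to all libraries (adjusted p = 0.398), but was in a fit to these 6 libraries alone (adjusted p = 0.0154). Control mice had 170, 489 and 531 CPM on ethanol, against 21.7, 404 and 420 CPM on the pair-fed diet, which overlap. Their difference of 1.18 ± 0.73 was not called (adjusted p = 0.417).

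Cyp2b13, the other of this pair, changed in opposite directions in overexpressing and knockout mice, and in controls its values lay otherwise than those of Cyp2b9. In overexpressing mice it stood at 80.3, 47.0 and 110.05 CPM on ethanol, against 1.52, 1.22 and 0 CPM on the pair-fed diet, and it rose by 5.42 ± 1.22 (limma, adjusted p = 0.0353). In knockout mice it stood at 10.3, 3.525 and 5.44 CPM on ethanol, against 249.995, 194 and 349 CPM on the pair-fed diet, and it fell by 5.23 ± 1.22 on the log2 scale (adjusted p = 0.0112). The libraries of the diets did not overlap in either genotype, and the directions were opposite. Control mice had 6.77, 64.9 and 76.9 CPM on ethanol, against 1.23, 290.3 and 244 CPM on the pair-fed diet. Their difference was -0.66 ± 1.22 (adjusted p = 0.826), and -2.97 without pair-fed replicate 1 (adjusted p = 0.0305). In recovered reads, overexpressing mice had 1339 reads of Cyp2b13 over 3 ethanol-fed libraries, against 15 over 3 pair-fed ones, a ratio of 87.7 with a counting interval of 53.0 to 157.

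Both genes lined up with the sex chromosome pattern among pair-fed libraries. Cyp2b9 stood at 404 to 468 CPM in the 5 pair-fed libraries with Xist and at 7.15 to 22.8 CPM in the 4 with Y-linked reads. Cyp2b13 stood at 194 to 349 CPM in the 5 with Xist and at 0 to 1.52 CPM in the 4 with Y-linked reads. Pair-fed control replicate 1 lay among the pair-fed overexpressing libraries in both genes, and the other 2 controls lay among the pair-fed knockout libraries. In the 9 ethanol-fed libraries, all with Y-linked reads, Cyp2b9 stood at 170 to 531 CPM and Cyp2b13 at 3.525 to 110.05 CPM, above all 4 pair-fed libraries of the same pattern.

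Matched on this pattern, the ethanol response of controls ran upward in both genes. Without the Xist libraries, 3 ethanol-fed controls were set against pair-fed replicate 1 alone, a single library whose spread was taken from the other groups. Cyp2b9 was then higher by 3.97 (adjusted p = 0.00889), and Cyp2b13 by 3.94 with no call (adjusted p = 0.118). With the Xist term, the difference in knockout mice was 3.17 for Cyp2b9 (adjusted p = 0.119) and 1.68 for Cyp2b13 (adjusted p = 0.808), both upward and neither called. In overexpressing mice both calls held without the Xist libraries, at 4.76 (adjusted p = 3.55e-05) and 5.42 (adjusted p = 0.00144).

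By group mean, Cyp2b9 ran from pair-fed knockout (446 ± 36.1 CPM) through ethanol-fed control (397 ± 197 CPM), ethanol-fed overexpressing (373 ± 48.6 CPM), pair-fed control (282 ± 226 CPM) and ethanol-fed knockout mice (223 ± 53.0 CPM) to pair-fed overexpressing mice (14.1 ± 7.96 CPM). Cyp2b13 ran from pair-fed knockout (264 ± 78.2 CPM) through pair-fed control (179 ± 155 CPM), ethanol-fed overexpressing (79.1 ± 31.6 CPM), ethanol-fed control (49.5 ± 37.5 CPM) and ethanol-fed knockout mice (6.41 ± 3.47 CPM) to pair-fed overexpressing mice (0.911 ± 0.803 CPM). In both orders the libraries of neighbouring groups overlapped, except for the last step, from ethanol-fed knockout to pair-fed overexpressing mice.

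**Figure D2:**
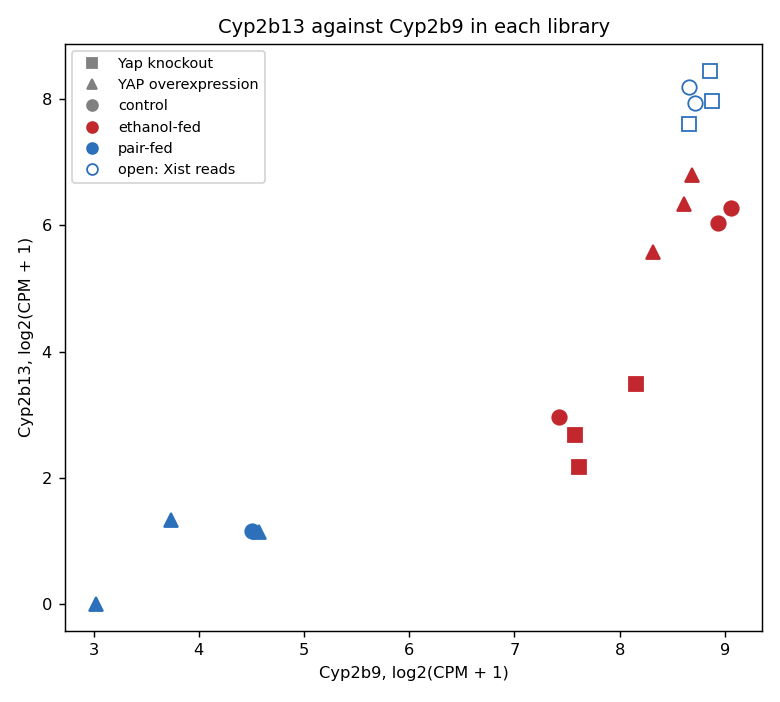
Cyp2b13 against Cyp2b9, both as log2(CPM + 1), with 1 point per library. Squares are Yap knockout, triangles YAP overexpression and circles control mice, red is ethanol-fed, blue is pair-fed, and open symbols are the 5 libraries with Xist. The open symbols lie at the upper right and the 4 pair-fed libraries with Y-linked reads at the lower left. Ethanol-fed libraries lie between both sets in Cyp2b13. In Cyp2b9 they lie near the open symbols, and ethanol-fed control replicates 2 and 3 lie beyond them.

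Nr1i3, which encodes CAR, showed no called change with ethanol. It stood at 190, 98.5 and 82.7 CPM in ethanol-fed knockout libraries, against 90.4, 270 and 311 CPM in pair-fed ones. Overexpressing mice had 332, 211 and 218 CPM on ethanol, against 231, 120 and 197 CPM on the pair-fed diet. Control mice had 110, 195 and 240 CPM on ethanol, against 202, 104.2 and 252 CPM on the pair-fed diet. The diets overlapped in all 3 genotypes, and pair-fed knockout replicate 1 was far below the other 2. The change was -0.76 ± 0.43 in knockout (limma, adjusted p = 0.276), 0.49 ± 0.43 in overexpressing (adjusted p = 0.656) and -0.01 ± 0.43 in control mice (adjusted p = 0.992). The 95% interval in controls ran from -0.92 to 0.89, so a change of Nr1i3 near 1 log2 unit in either direction lay at its edge. Without pair-fed knockout replicate 1 the value in knockout mice was -1.32 (adjusted p = 0.0451).

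Nr1i2, which encodes PXR, fell on ethanol in overexpressing mice. It stood at 55.3, 41.3 and 40.1 CPM on ethanol, against 81.6, 93.2 and 79.4 CPM on the pair-fed diet, and fell by 0.89 ± 0.20 (limma, adjusted p = 0.0395). Control mice had 54.9, 71.3 and 74.6 CPM on ethanol, against 81.2, 108.4 and 121 CPM on the pair-fed diet, a difference of -0.62 ± 0.20 that was not called (adjusted p = 0.112). In neither genotype did the libraries of the diets overlap. Knockout mice had 85.9, 90.5 and 122 CPM on ethanol, against 93.0, 140 and 109.03 CPM on the pair-fed diet, which overlap (-0.19 ± 0.20, adjusted p = 0.587). Averaged over the genotypes Nr1i2 fell by 0.57 ± 0.12 (adjusted p = 0.00243), and with the Xist term the value was -0.29 (adjusted p = 0.557). The call in overexpressing mice did not hold in edgeR on recovered reads (adjusted p = 0.0886), with TMM factors (adjusted p = 0.0789) or with quantile normalization (adjusted p = 0.0747).

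Between genotypes, Nr1i2 differed on ethanol. Overexpressing mice (45.5 ± 8.42 CPM) lay below knockout mice (99.4 ± 19.5 CPM) in all 3 libraries each, by -1.11 ± 0.20 (limma, adjusted p = 0.00899). Controls averaged 66.9 ± 10.6 CPM. This call held in all 18 alternative fits, with adjusted p between 0.00624 and 0.0481. Against controls, Nr1i2 was at 0.56 ± 0.20 in knockout mice (adjusted p = 0.493) and at -0.55 ± 0.20 in overexpressing mice (adjusted p = 0.388), and neither was called. On the pair-fed diet the means were 114.06 ± 23.99 CPM in knockout, 84.7 ± 7.43 CPM in overexpressing and 103.6 ± 20.4 CPM in control mice.

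Por, the electron donor of the P450 enzymes, had no called change with ethanol. Knockout mice had 1348, 1115 and 1280 CPM on ethanol, against 589, 1573 and 1261 CPM on the pair-fed diet (0.24 ± 0.30, limma, adjusted p = 0.660). Overexpressing mice had 582, 589 and 592 CPM on ethanol, against 756, 511 and 794 CPM on the pair-fed diet (-0.20 ± 0.30, adjusted p = 0.823). Control mice had 1075, 1326 and 1060 CPM on ethanol, against 1177, 632 and 1354 CPM on the pair-fed diet (0.19 ± 0.30, adjusted p = 0.791). The diets overlapped in each genotype. Among ethanol-fed libraries the overexpressing ones lay below all others, at -1.08 ± 0.30 against knockout (adjusted p = 0.0735) and -0.96 ± 0.30 against control libraries (adjusted p = 0.272). Neither was called, and the first passed without the Xist libraries (adjusted p = 0.00936) and in a fit to the 6 libraries compared (adjusted p = 0.00935).

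Sult1e1 was a rare transcript that rose on ethanol in knockout and control mice. Ethanol-fed knockout libraries had 4.40, 2.78 and 3.08 CPM, against 0.187, 0.214 and 0 CPM in pair-fed ones. Ethanol-fed controls had 3.92, 22.4 and 6.25 CPM, against 0.175, 0.182 and 0.382 CPM in pair-fed ones. The diets did not overlap in either genotype, and pair-fed levels were at or below the limit of 3 reads. The change was 1.95 ± 0.48 in knockout (limma, adjusted p = 0.0154) and 2.92 ± 0.48 in control mice (adjusted p = 0.00402). Both calls were lost with the Xist term, at 2.07 in knockout (adjusted p = 0.641) and 3.00 in control mice (adjusted p = 0.0973), and the control call also without the Xist libraries (adjusted p = 0.128). The knockout call was lost too without pair-fed replicate 3 (adjusted p = 0.0510), without ethanol-fed replicate 1 (adjusted p = 0.0654), with no filter (adjusted p = 0.0787) and with a pseudocount of 10 (adjusted p = 0.214). In overexpressing mice, ethanol-fed libraries had 1.99, 0.737 and 6.20 CPM, against 0.379, 1.22 and 0.550 CPM in pair-fed ones, which overlap (0.99 ± 0.48, adjusted p = 0.356).

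In summed reads of Sult1e1, knockout mice had 56 on ethanol against 2 on the pair-fed diet, a ratio of 27.0 after scaling to depth, with a 95% interval of 7.13 to 228. Control mice had 174 on ethanol against 4 on the pair-fed diet (ratio 43.2, 16.6 to 160). Overexpressing mice had 51 on ethanol against 12 on the pair-fed diet (ratio 4.18, 2.20 to 8.61). These intervals are exact binomial ones and cover counting error only. The ethanol response of overexpressing mice differed from that of controls by -1.93 ± 0.68 and was not called (adjusted p = 0.507). Averaged over the genotypes the rise was 1.96 ± 0.28 (adjusted p = 0.000150), and with the Xist term 2.02 (adjusted p = 0.0712).

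**Figure D3:**
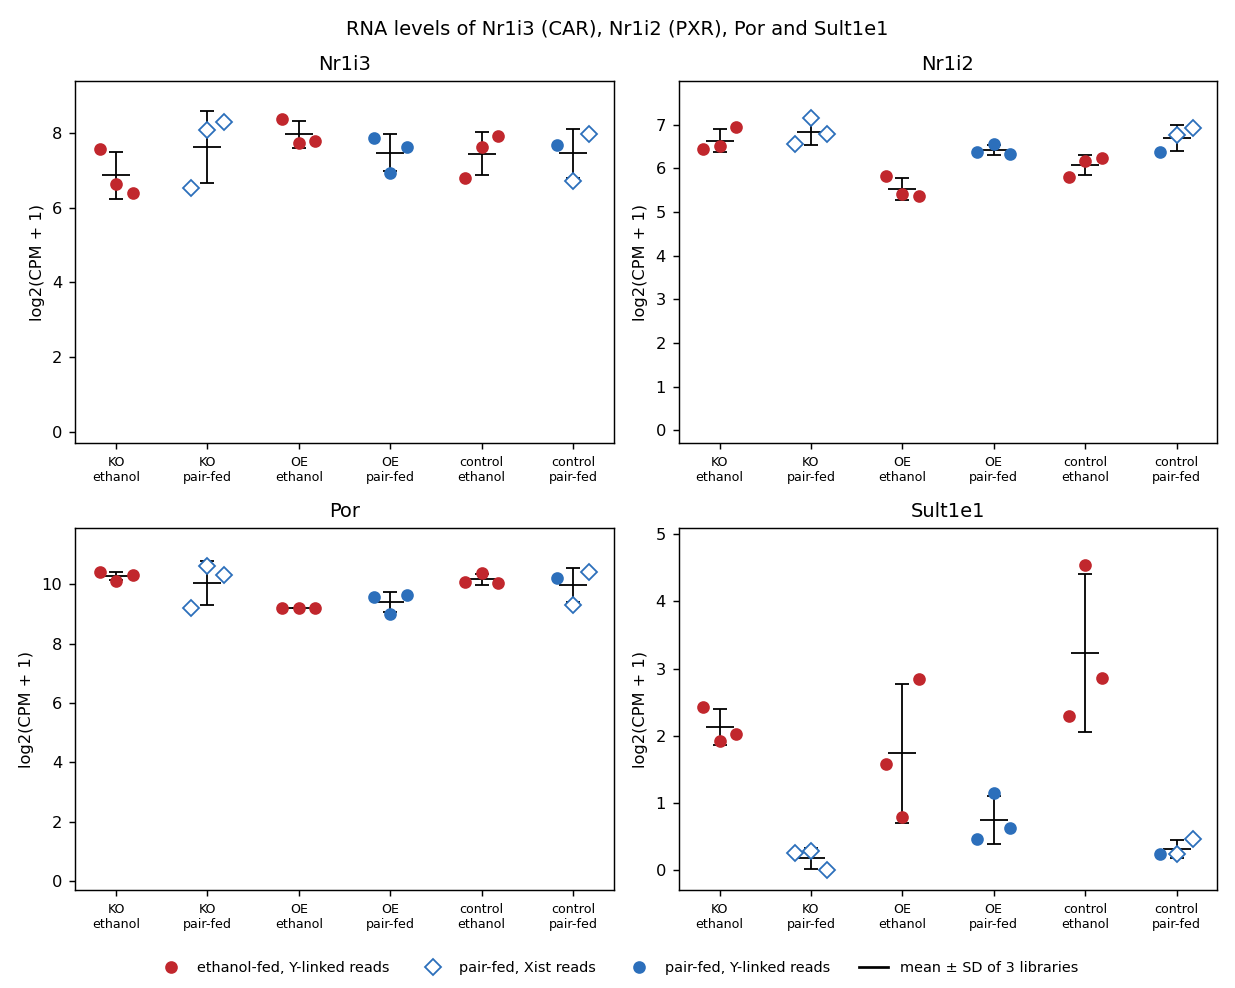
RNA levels of Nr1i3, Nr1i2, Por and Sult1e1 as log2(CPM + 1) on the vertical axis, by group on the horizontal axis. Points are libraries, open diamonds are the 5 libraries with Xist, and bars give the mean ± SD. Nr1i2 is lowest in ethanol-fed overexpressing mice, Por varies little among them, and Sult1e1 is near 0 in pair-fed knockout and control libraries.

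Counted over the 7 genes, ethanol gave 3 calls in knockout mice (Cyp2b10 and Sult1e1 higher, Cyp2b13 lower), where 9.9% of all genes tested were called (4.1% higher, 5.79% lower). It gave 4 calls in overexpressing mice (Cyp2b9, Cyp2b10 and Cyp2b13 higher, Nr1i2 lower), where 1.15% of all genes were called (0.401% higher, 0.751% lower). Leaving out any 1 of those 6 libraries removed the call of Cyp2b13 (adjusted p up to 0.148), and all but ethanol-fed replicate 1 also that of Nr1i2 (up to 0.175), while the calls of Cyp2b9 and Cyp2b10 held in each. Without the pair-fed library labelled overexpression replicate 1, whose Yap1 lay in the control range, Cyp2b9 rose by 4.74 (adjusted p = 0.0209) and Cyp2b10 by 3.93 (adjusted p = 0.00367). It gave 2 calls in control mice (Cyp2b10 and Sult1e1 higher), where 2.7% of all genes were called (1.02% higher, 1.67% lower). Averaged over the genotypes 4 genes were called (Cyp2b10, Sult1e1 and Cyp2b9 higher, Nr1i2 lower), where 20.5% of all genes were called (7.21% higher, 13.3% lower). The median change over the 7 genes was -0.19 in knockout, 0.99 in overexpressing and 0.19 in control mice, beside -0.05, -0.07 and -0.09 over all genes. The 3 comparisons within a genotype share no library, but their spread was estimated together in one fit to the 18 libraries.

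**Figure D4:**
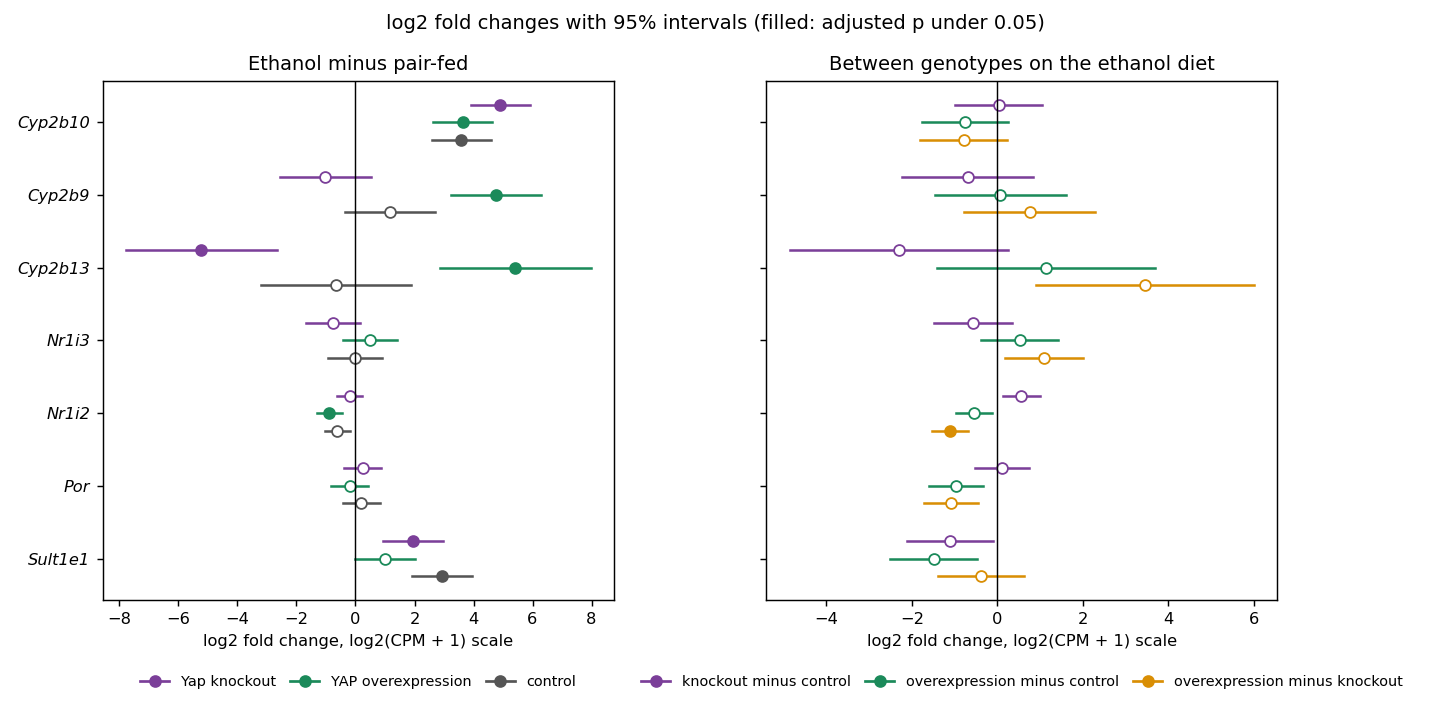
The log2 fold changes of the 7 genes on the horizontal axis with 95% intervals from limma, for ethanol minus pair-fed in each genotype (left) and between genotypes on the ethanol diet (right). Filled points have an adjusted p under 0.05. Cyp2b10 is to the right of 0 in all 3 genotypes, Cyp2b13 lies on opposite sides in knockout and overexpressing mice, and Nr1i2 is the gene called between overexpressing and knockout mice.

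Between genotypes on the same diet, 1 value was called in limma, that of Nr1i2 given above. Knockout against control gave 0 calls on the pair-fed diet (0.00853% of all genes called) and 0 on ethanol (0.0171%), in limma and in edgeR. At an unadjusted p under 0.05 the counts were 1 of 7, Cyp2b10 on the pair-fed diet (3.13% of all genes), and 2 of 7, Nr1i2 and Sult1e1 on ethanol (8.34% of all genes). Cyp2b10 stood at 18.3 ± 3.81 CPM in pair-fed knockout mice, against 52.5 ± 35.5 CPM in pair-fed controls (-1.30 ± 0.48, limma, adjusted p = 0.999). Control replicate 1, the only one of these libraries with Y-linked reads, had 93.3 CPM, against 28.5 and 35.8 CPM in replicates 2 and 3. Leaving out 1 library at a time gave -1.63 to -0.79. On ethanol Cyp2b13 stood at 6.41 ± 3.47 CPM in knockout mice, against 49.5 ± 37.5 CPM in controls (-2.31 ± 1.22, adjusted p = 0.649), and control replicate 1 lay within the knockout range. Sult1e1 on ethanol stood at 3.42 ± 0.858 CPM in knockout mice, against 10.9 ± 10.1 CPM in controls (-1.11 ± 0.48, adjusted p = 0.568).

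Overexpression against control gave 0 calls in limma on the pair-fed diet (0.145% of all genes called, 0.0597% higher and 0.0853% lower). At an unadjusted p under 0.05 there were 2 of the 7 and 8.46% of all genes. On this diet Cyp2b9 was at -3.52 ± 0.73 (adjusted p = 0.0677) and Cyp2b13 at -4.93 ± 1.22 (adjusted p = 0.144), while edgeR on recovered reads called both (adjusted p = 0.0108 and 0.0196). Pair-fed control replicate 1 decided these values. Without it Cyp2b9 was at -4.91 (adjusted p = 1.40e-06) and Cyp2b13 at -7.24 (adjusted p = 6.64e-06), with controls then of the Xist pattern alone. Against replicate 1 alone, which shares the pattern of the overexpressing libraries, Cyp2b9 was at -0.73 (adjusted p = 0.980) and Cyp2b13 at -0.33 (adjusted p = 0.998). On ethanol, overexpression against control gave 0 calls (0.102% of all genes called, 0.0683% higher and 0.0341% lower) in limma and 0 in edgeR, with 3 of the 7 and 8.84% of all genes at an unadjusted p under 0.05. Sult1e1 stood there at 2.97 ± 2.86 CPM in overexpressing mice, against 10.9 ± 10.1 CPM in controls (-1.49 ± 0.48, adjusted p = 0.290).

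Overexpression against knockout on ethanol gave 1 call, the fall of Nr1i2 given above, where 1.88% of all genes were called (0.529% higher, 1.35% lower). Cyp2b13 stood at 79.1 ± 31.6 CPM in overexpressing mice, against 6.41 ± 3.47 CPM in knockout mice, with no overlap (3.46 ± 1.22, limma, adjusted p = 0.163). It was called with the Xist term (adjusted p = 0.00681), without the Xist libraries (adjusted p = 0.0165) and in a fit to the 6 libraries compared (adjusted p = 0.000594). Nr1i3 stood at 254 ± 68.1 CPM in overexpressing mice, against 124 ± 57.7 CPM in knockout mice (1.09 ± 0.43, adjusted p = 0.218). Cyp2b9 was at 0.76 ± 0.73 (adjusted p = 0.682), also with no overlap of the libraries.

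Whether the ethanol response differed from that of controls was tested as an interaction, and 0 of the 7 genes and 0% of all genes were called in either mutant, in limma and in edgeR. At an unadjusted p under 0.05 there were 2 of the 7 for knockout (5.68% of all genes) and 3 of the 7 for overexpression (7.23% of all genes). For overexpression the difference in response was 3.59 ± 1.04 for Cyp2b9 (limma, adjusted p = 0.323) and 6.08 ± 1.72 for Cyp2b13 (adjusted p = 0.307). Without pair-fed control replicate 1 both passed, at 4.98 (adjusted p = 8.74e-05) and 8.38 (adjusted p = 8.92e-05). Without the Xist libraries they were 0.79 (adjusted p = 0.872) and 1.47 (adjusted p = 0.857). For knockout the 2 were Cyp2b13, at -4.56 ± 1.72 (adjusted p = 0.864), and Cyp2b9, at -2.19 ± 1.04 (adjusted p = 0.864). Cyp2b10, not among them, was at 1.32 ± 0.68 (adjusted p = 0.869). Pair-fed knockout libraries all have Xist and pair-fed controls mix both patterns, so these values cannot be told apart from the Xist pattern.

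Other genes known to respond to CAR or PXR moved less evenly than Cyp2b10. Of 18 tested P450, reductase and related genes, 2 rose and 1 fell on ethanol in knockout mice. In overexpressing mice 1 rose, and none was called in control mice. The shares called were 16.7%, 5.56% and 0%, beside 9.9%, 1.15% and 2.7% of all genes tested. List medians were 0.15, 0.08 and 0.44. In knockout mice Ephx1, the microsomal epoxide hydrolase, rose by 1.65 ± 0.32 (limma, adjusted p = 0.00353) and Cyp3a13, a P450 of the 3A family, by 0.95 ± 0.25 (adjusted p = 0.0212). Akr1b7, an aldo-keto reductase, fell by 1.61 ± 0.51 (adjusted p = 0.0496). Diet in knockout mice cannot be told apart from the Xist pattern, and pair-fed controls mix both patterns. Among pair-fed libraries, Ephx1 stood at 398 to 518 CPM in the 5 with Xist and at 988 to 1818 CPM in the 4 with Y-linked reads. Akr1b7 stood at 1.53 to 5.66 CPM and 0 to 0.870 CPM in the same order, while Cyp3a13 overlapped (217 to 359 and 187 to 419 CPM). Cyp3a13 stood at 584, 743 and 763 CPM in ethanol-fed overexpressing libraries, against 279, 187 and 292 CPM in pair-fed ones (1.48 ± 0.25, adjusted p = 0.00828). In control mice the smallest p-values were those of Ephx1 (1.07 ± 0.32, adjusted p = 0.0822) and Cyp2c29, a P450 of the 2C family (1.68 ± 0.51, adjusted p = 0.0871). Averaged over the genotypes 6 of the 18 rose and none fell, beside 7.21% of all genes called higher and 13.3% lower. Cyp2c29 was at 1.54 ± 0.30 (limma, adjusted p = 0.00137), Cyp3a13 at 1.07 ± 0.15 (adjusted p = 9.20e-05) and Cyp2c55 at 1.14 ± 0.27 (adjusted p = 0.00558). This average includes the knockout and control mice and so carries the Xist pattern in part. Pair-fed Cyp2c29 stood at 408 to 728 CPM in libraries with Xist and at 612 to 2224 CPM in those with Y-linked reads.

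Of 12 conjugating enzymes, 3 rose and 1 fell in knockout mice, 1 rose in overexpressing mice and none was called in control mice. The shares called were 33.3%, 8.33% and 0%, beside 9.9%, 1.15% and 2.7% of all genes. The knockout calls of this and the next 2 lists cannot be told apart from the Xist pattern. Sult1a1, the phenol sulfotransferase, rose by 0.79 ± 0.23 in knockout (limma, adjusted p = 0.0327) and by 1.01 ± 0.23 in overexpressing mice (adjusted p = 0.0346), and was at 0.74 ± 0.23 in controls (adjusted p = 0.0867). The glutathione transferases Gstm1 and Gstm3 rose in knockout mice by 1.52 ± 0.37 (adjusted p = 0.0144) and 2.73 ± 0.73 (adjusted p = 0.0221). Sult2a1, a hydroxysteroid sulfotransferase that is also in the female-biased list, fell by 5.98 ± 1.01 in knockout mice (adjusted p = 0.00145). Of 7 drug transporters, 1 fell in knockout mice, Abcb1a, a P-glycoprotein (-1.45 ± 0.39, adjusted p = 0.0222), and none was called in overexpressing or control mice. Of 5 tested growth genes of the CAR response, 1 fell in knockout mice, the cyclin Ccnd1 (-1.86 ± 0.53, limma, adjusted p = 0.0330). None was called in the other 2 genotypes. In knockout mice 14.3% of the transporters and 20% of the growth genes were called, each 1 gene, beside 9.9% of all genes.

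Of 28 partners and regulators of CAR and PXR, none rose and 3 fell in knockout mice (10.7%, near the 9.9% of all genes called there), and none was called in overexpressing or control mice. The 3 were Nr0b2, the corepressor SHP (-2.18 ± 0.50, limma, adjusted p = 0.0104), the fatty acid receptor Ppara (-1.17 ± 0.24, adjusted p = 0.00582) and the hepatocyte factor Cebpa (-0.90 ± 0.26, adjusted p = 0.0327). Here and in the next list, the knockout calls cannot be told apart from the Xist pattern. Of 16 genes of estrogen metabolism and sulfonation, 1 rose (Sult1a1) and 3 fell (Hsd17b11, Slc26a1 and Sult2a1) in knockout mice. In overexpressing mice 2 rose (Esr1 and Sult1a1), and none was called in controls. In knockout, overexpressing and control mice 4, 2 and 0 of the 16 were thus called, beside 9.9%, 1.15% and 2.7% of all genes. The estrogen receptor gene Esr1 stood at 27.8, 37.9 and 38.1 CPM in ethanol-fed overexpressing libraries, against 8.71, 13.7 and 15.2 CPM in pair-fed ones (1.41 ± 0.28, adjusted p = 0.0182). On the pair-fed diet it was lower in overexpressing mice than in controls (-1.42 ± 0.28, adjusted p = 0.0423), and those controls had 27.7, 42.5 and 35.0 CPM. Replicate 1, the pair-fed control with Y-linked reads, was the lowest of these 3 and lay above the overexpressing libraries.

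Lists of genes known to be higher in the liver of female or of male mice were read beside Cyp2b9 and Cyp2b13. Of 17 tested female-biased genes, none rose and 10 fell on ethanol in knockout mice (median -2.73), 1 rose in overexpressing mice (median 0.96, 15 of 17 above 0) and 1 fell in controls (median -0.38). Of 15 tested male-biased genes, 4 rose and 1 fell in knockout mice (median 1.21). In overexpressing mice 4 fell (median -1.79, 1 of 15 above 0), and in controls 2 fell (median -0.42). In knockout, overexpressing and control mice 58.8%, 5.88% and 5.88% of the female-biased genes were called. The shares were 33.3%, 26.7% and 13.3% for the male-biased genes and 9.9%, 1.15% and 2.7% for all genes. In knockout mice the diets also differ in Xist and Ddx3y, from which these counts cannot be told apart. In overexpressing mice Xist was at 0 to 0.183 CPM and Ddx3y at 54.0 to 86.2 CPM in the 6 libraries.

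In overexpressing mice the called genes of these lists were Cux2, Bcl6, Hsd3b5, Cyp4a12b and Hsd3b2. Cux2, a transcription factor of female liver, stood at 1.81, 5.89 and 10.3 CPM on ethanol, against 0, 0 and 0.183 CPM on the pair-fed diet (2.51 ± 0.50, limma, adjusted p = 0.0182). Bcl6, a repressor that is higher in male liver, stood at 15.0, 9.76 and 18.6 CPM on ethanol, against 68.5, 42.4 and 93.5 CPM on the pair-fed diet (-2.13 ± 0.34, adjusted p = 0.00513). Neither gene overlapped between the diets. Cyp4a12b, a fatty acid hydroxylase of male liver, fell by 3.41 ± 0.68 (adjusted p = 0.0183), and the steroid dehydrogenase genes Hsd3b5 and Hsd3b2 fell by 3.98 ± 0.75 (adjusted p = 0.0135) and 1.79 ± 0.42 (adjusted p = 0.0453).

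In controls Bcl6 and Hsd3b2 also fell, by 1.45 ± 0.34 (limma, adjusted p = 0.0258) and 2.68 ± 0.42 (adjusted p = 0.00275), and A1bg, a female-biased gene, fell by 4.22 ± 0.76 (adjusted p = 0.00766). A1bg stood at 5.60 CPM in pair-fed control replicate 1, against 176 and 32.1 CPM in the other 2, so this fall moved with the Xist pattern. Among the other Cyp2 genes, 33 of which were tested, 1 rose and 5 fell in knockout mice, where diet cannot be told apart from the Xist pattern. In overexpressing mice 1 rose, and in controls 1 fell. The shares called were 18.2%, 3.03% and 3.03%, beside 9.9%, 1.15% and 2.7% of all genes. The one that rose in overexpressing mice was Cyp2c70, a bile acid hydroxylase in mice (1.27 ± 0.28, adjusted p = 0.0346).

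**Figure D5:**
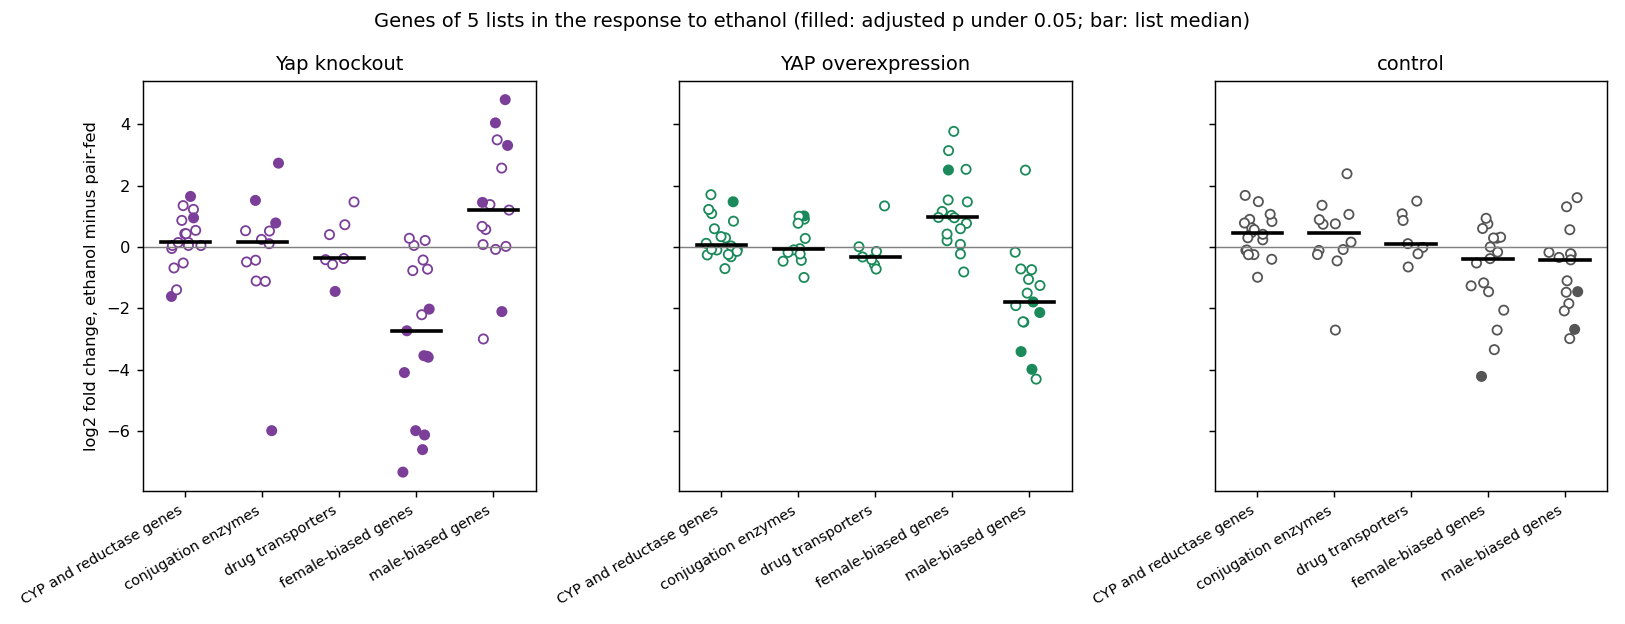
The log2 fold change of ethanol minus pair-fed on the vertical axis for the tested genes of 5 lists, in Yap knockout, YAP-overexpressing and control mice. Points are genes, filled points have an adjusted p under 0.05 in limma, and bars are list medians. The medians of female-biased and male-biased genes lie on opposite sides of 0, in opposite arrangements, in knockout (medians -2.73 and 1.21) and overexpressing mice (medians 0.96 and -1.79), while both medians lie below 0 in controls.

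Markers of liver cell types also differed between the diets. In knockout mice this difference cannot be told apart from the Xist pattern. The summed level of 6 Kupffer cell markers was 140 to 178 CPM in ethanol-fed knockout libraries, against 394 to 469 CPM in pair-fed ones. Of the 6 markers 5 fell. Among pair-fed libraries Vsig4 stood at 66.7 to 98.8 CPM with Xist and at 29.7 to 59.6 CPM with Y-linked reads. Timd4 divided in the same way, while Adgre1, Cd5l and Clec4f overlapped. In overexpressing and control mice the Kupffer cell sums of the diets overlapped. The Kupffer cell sum was 311 to 342 CPM in ethanol-fed overexpressing libraries, against 227 to 474 CPM in pair-fed ones, with none of the 6 called. It was 242 to 444 CPM in ethanol-fed controls, against 362 to 395 CPM in pair-fed ones, with none called. Summed hepatocyte markers stood at 47960 to 52544 CPM in ethanol-fed knockout libraries, against 61251 to 80106 CPM in pair-fed ones. Of the 5 markers 1, Ttr, fell (-0.79 ± 0.21, limma, adjusted p = 0.0196). Pair-fed Ttr stood at 3750 to 5099 CPM with Xist and at 2524 to 3287 CPM with Y-linked reads. The hepatocyte sums overlapped between the diets in the other 2 genotypes, with none of the 5 called. They were 38976 to 45436 CPM on ethanol and 38573 to 51655 CPM pair-fed in overexpressing mice. Controls had 52588 to 66270 CPM and 49910 to 74747 CPM in the same order. Of 4 sinusoidal endothelial markers, Lyve1 rose in knockout (1.84 ± 0.48, adjusted p = 0.0198) and control mice (2.45 ± 0.48, adjusted p = 0.0107), and Pecam1 in control mice (0.78 ± 0.20, adjusted p = 0.0421). In knockout and in control mice alike, 2 of the 4 were above 0 and the others were not. The sum of the 4 was 250.5 to 266 CPM in ethanol-fed controls, against 177 to 225 CPM in pair-fed ones. In knockout mice the sums overlapped, at 164 to 275 CPM on ethanol and 209 to 232 CPM on the pair-fed diet. In knockout mice 83.3% of Kupffer cell, 20% of hepatocyte and 25% of endothelial markers were called, beside 9.9% of all genes. In controls 50% of endothelial markers were called, beside 2.7% of all genes. The part of these cells in the changes of the 7 genes was not tested.

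The genes whose levels over the 18 libraries were most like those of each gene are given as a description, with Pearson's r of log2(CPM + 1), among 8451 genes with a mean of at least 5 CPM. The libraries share diet, genotype and scaling, so r carries those differences. For Cyp2b10 they were Eif1a (0.92), Leprotl1 (0.92) and Pla2g12b (0.91), with 0.87, 0.86 and 0.85 in the 13 libraries with Y-linked reads. For Cyp2b9 they were St3gal6 (0.88), BC089597 (0.88) and Cyp39a1 (0.85), with 0.91, 0.87 and 0.91 in the 13. For Cyp2b13 they included Pcp4l1 (0.89) and St3gal6 (0.88), with 0.85 and 0.82 in the 13, so that St3gal6 stood in the lists of both Cyp2b9 and Cyp2b13.

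For Nr1i3 the most alike included Plcxd2 (0.86) and Lifr (0.85), with 0.84 and 0.86 in the 13 libraries. For Nr1i2 they were Ist1 (0.91), Tox (0.91) and Glud1 (0.88), with 0.90, 0.85 and 0.83. For Por they were Rnf217 (0.83), Vcpip1 (0.83) and Ubxn7 (0.81), with 0.80, 0.79 and 0.69. Sult1e1 had a mean below 5 CPM and was not ranked.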

How the data were processed

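Liver RNA of 18 mouse libraries in 6 groups was measured with the Ion AmpliSeq mouse transcriptome panel, per the labels. The series table deposited by the authors holds CPM for 23930 genes, and a file for each library gives log2 of RPM plus 1, made with ampliSeqRNA 5.10.1.2, per the file headers. The deposited log2 values equal log2(CPM + 1) of the table within 2e-06. All values (100%) gave whole read counts within 0.02 reads, so the count test could be run on recovered reads. Aligner and genome build: not given in the sources used here. Depth was 4.68 to 5.81 M reads per library.

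The 11720 genes reaching 1 CPM in 3 or more libraries entered one limma 3.58.1 fit (lmFit, eBayes with trend, R 4.3.3) to log2(CPM + 1) with a mean per group over 18 libraries. Tests were two-sided, with Benjamini-Hochberg adjustment over all genes of a comparison and a threshold of 0.05. The 11 comparisons were ethanol against pair-fed in each genotype and on average, genotypes within a diet, and the 2 interactions. The 7 genes and the gene lists were chosen with earlier results of these data known. Named list genes are those called in a comparison, otherwise at most the 2 with the smallest p, and for each of the 7 genes with a mean of at least 5 CPM the 3 most alike by Pearson's r; Xist, Ddx3y and Yap1 check the libraries. Some genes that this rule names are not reported here.

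Alternatives were other filters (none, or 10 CPM in 3 libraries, 7736 genes), a pseudocount of 0.1 or 10, scaling by TMM or by quantiles, a block for barcode range or for replicate number, a fit to only the libraries of a comparison, edgeR 4.0.16 (quasi-likelihood, TMM) on recovered reads, a term for Xist libraries, leaving out all of them, and leaving out each library. On simulated data for the ethanol response of overexpressing mice (11535 genes), limma found 97% of the 4-fold changes and 37% of the 2-fold ones. It made 4 false calls. Changes were placed only in genes with a mean of at least 5 CPM, and the groups otherwise shared a mean per gene. The simulation therefore held no Xist pattern and does not cover rare transcripts such as Sult1e1. Promoters are those of RefSeq on GRCm38.p6, matched for 7 of 7 genes.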

Additional observations from a re-analysis of the deposited data

Results flagged for a closer look

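Cyp2b9 and Cyp2b13 lay in opposite order between the diets in knockout and overexpressing mice, with no overlap of the libraries in either. For Cyp2b9 the change was -1.02 in knockout mice, which was not called (limma, adjusted p = 0.398), and 4.76 in overexpressing mice. For Cyp2b13 it was -5.23 in knockout and 5.42 in overexpressing mice. The difference between these 2 responses was not tested as a term of its own. The pair-fed knockout libraries all have Xist and the pair-fed overexpressing libraries none, and with the Xist term the values in knockout mice were 3.17 for Cyp2b9 and 1.68 for Cyp2b13.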

How the results depend on the processing

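Of 1508 values of single genes under alternatives, 1457 kept their side of the threshold with no called change of sign, 33 were no longer called, 16 became called and 2 reversed. The reversals were Cyp2b13 with the Xist term, at 1.68 in knockout mice (adjusted p = 0.808) and at 3.68 on average (adjusted p = 0.00889). The cause was not tested, and the term rests on 3 pair-fed controls. Of 14 called values, 3 were called under every alternative. The number of the 7 genes called for ethanol in knockout mice was 1 with no filter and 0 with the Xist term. In overexpressing mice it was 1 with no filter and 2 with a pseudocount of 10. In controls it was 1 with the filter at 10 CPM (Cyp2b10, with Sult1e1 not tested), 1 with the Xist term and 1 without all Xist libraries, and in these last 2 fits the gene was Cyp2b9, with Cyp2b10 and Sult1e1 no longer called. For overexpression against knockout on ethanol it was 3 in a fit to the libraries compared, 2 with the Xist term and 3 without all Xist libraries. For overexpression against control on the pair-fed diet edgeR called 2, and over all genes 29 against 17 in limma. Leaving out 1 library at a time gave 2 to 3 calls in overexpressing mice, where each of the 6 libraries removed 1 or 2 of the 4 calls, 2 to 4 in knockout mice, 2 to 3 in controls, 4 to 4 on average, 1 to 1 for overexpression against knockout on ethanol, and 0 to 2 for overexpression against control on the pair-fed diet and for the overexpression interaction, with 2 when pair-fed control replicate 1 was the one left out. Without pair-fed overexpression replicate 1, Cyp2b13 was at 5.67 (adjusted p = 0.0842) and Nr1i2 at -0.92 (adjusted p = 0.104) in overexpressing mice. With a replicate block the counts were 3, 4 and 2 for ethanol in knockout, overexpressing and control mice and 1 for overexpression against knockout, the same as without it. Libraries were not paired by number in the main fit. The 24 correlations of same-numbered libraries ran from -0.27 to 0.28 and 5 were over 0.1. With 3 libraries per group, these values do not decide whether same-numbered libraries were handled together. Leaving out all Xist libraries could not be fitted for ethanol in knockout mice, since all 3 pair-fed knockout libraries have Xist. Sult1e1 was limited by depth, with at most 7 reads in a pair-fed library.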

Other observations

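Ethanol-fed control replicate 1 was the lowest library of its group in 6 of the 7 genes, all but Por. It had 193 CPM of Cyp2b10, against 1171 and 782 CPM in the other 2, and 6.77 CPM of Cyp2b13, against 64.9 and 76.9 CPM. Cyp2c29 stood at 1209 CPM in that library, against 3846 and 4269 CPM in the other 2, and Cyp2c70 at 615 CPM, against 1423 and 1456 CPM. Both were chosen after their values were seen. Without that library the rise of Cyp2b10 in controls was 4.36 (limma, adjusted p = 9.67e-06) and that of Sult1e1 was 3.39 (adjusted p = 0.00209).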
